A study of Mus musculus with 6 samples.

Results

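The 31 genes described here encode 20 semaphorins, 9 plexins and 2 neuropilins. They are Sema3a to Sema3g, Sema4a to Sema4d, Sema4f, Sema4g, Sema5a, Sema5b, Sema6a to Sema6d and Sema7a, then Plxna1 to Plxna4, Plxnb1 to Plxnb3, Plxnc1 and Plxnd1, then Nrp1 and Nrp2. They were chosen by name, with earlier results of these data known but with no threshold on a measured value. Each symbol matched 1 of the 50686 gene identifiers in the count tables. All 31 had enough reads to be among the 15521 genes tested. RNASeq was available from 2 cultures of NSC and 2 cultures labelled NSC Bmi1Over, and H3K27me3 ChIPSeq from 1 library of each. NSC are neural stem cells from the brain of wild-type E16.5 mouse embryos. NSC Bmi1Over were prepared from STOPFloxBmi1;NestinCre embryos of the same age, in which Cre driven by the nestin promoter, active in neural progenitors, removes a stop cassette in front of a Bmi1 transgene. The study names the 2 cultures of each group as biologically independent, and cultures were kept as neurospheres or as a monolayer with EGF and FGF, without a record of which form each library came from. The mGIC libraries were not analysed here.

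Semaphorins are guidance cues that were first known for repelling or attracting growing axons and that also steer migrating neurons, vessels and glial cells. Class 3 members are secreted, classes 4 to 6 span the membrane, and Sema7a is held to it by a lipid anchor. Plexins are the receptors that carry the signal into the cell through a domain acting on small GTPases, and most class 3 semaphorins reach A-type plexins through a neuropilin, Nrp1 or Nrp2, as co-receptor. H3K27me3 is the histone mark laid down by Polycomb repressive complex 2 at silent developmental genes, and Bmi1 belongs to Polycomb repressive complex 1.

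The depth was 18112100 to 61353076 reads counted on genes per library. Reads counted on the Bmi1 gene were not raised in the libraries labelled NSC Bmi1Over (133.3 and 123.5 CPM in NSC against 118.6 and 112.6 CPM, log2 fold change -0.15, adjusted p = 0.463, edgeR's quasi-likelihood test). Whether reads of the transgene would be counted on this gene was not tested. Directions given below therefore rest on the labels. CPM are counts scaled to the normalised library size. The label of neural stem cells was checked with 8 stem and progenitor markers, all tested, which summed to between 5904 and 6617 CPM in the 4 libraries, with 0 of 8 called as different. The log2 fold changes of single markers lay on both sides of 0, at 0.46 for Slc1a3 and at -0.74 for Hes5, -0.42 for Sox2, -0.42 for Fabp7 and -0.28 for Pax6.

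These cells expressed most of the family, and Plxnb2 stood out among the receptors. To compare genes, CPM were divided by the length of all annotated exons of a gene, and this level per length is given as CPM per kb. By this measure, the mean over the 4 libraries was 10 or more for 12 of the 31 genes, between 1 and 10 for 13 and under 1 for 6 (Sema3b, Sema3d, Sema3e, Sema3g, Sema4a and Sema4f). The median of the 31 means was 4.36, against 0.964 over 21841 protein-coding genes.

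Plxnb2, a receptor for class 4 semaphorins that is needed for the proliferation and migration of neural progenitors, had the highest level per length of the 31. It stood at 79.7 and 107.7 in the NSC replicates and at 145.3 and 176.1 in the NSC Bmi1Over replicates, and made up between 50.1% and 55.8% of the summed level of the 9 plexins. Its mean level exceeded that of 98.9% of protein-coding genes. Plxna1, a receptor for class 3 and class 6 semaphorins, followed with 20.3 and 27.5 in NSC and 28.5 and 37.4 in NSC Bmi1Over. Plxnb1, the receptor for Sema4d, had 18.4 and 24.8 in NSC and 28.2 and 37.8 in NSC Bmi1Over. The order of Plxna1 and Plxnb1 differed between libraries and their levels lay within their spread, whereas Plxnb2 was first in all 4. Another gene overlaps 10.7% of the exon length of Plxna1, and reads that were ambiguous between genes were not counted. Nrp2 (13.97 ± 2.90 in NSC, SD, n = 2) was above Nrp1 (3.16 ± 0.423 in NSC, SD, n = 2) in every library, and Plxna4 was the lowest of the 11 receptors in every library. The choice of length moved some levels by over 1.5 times, those of the neuropilins among them, and with the longest transcript in place of all exons Nrp2 had 24.6 and Nrp1 8.49 in NSC.

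Among the ligands, the transmembrane semaphorins of class 6 had the highest summed level, carried by Sema6d and Sema6a. Sema6b and Sema6c ranked between 8 and 10 of 20 in the 4 libraries. Sema6d, which signals to A-type plexins, was first of 20 in all 4 libraries, at 35.8 and 48.9 CPM per kb in NSC and 65.3 and 77.6 in NSC Bmi1Over (69.4 in NSC with the longest transcript). Sema6a, a ligand of Plxna2 and Plxna4, stood at 15.9 and 21.5 in NSC and at 29.8 and 42.7 in NSC Bmi1Over. Sema5b, with an extracellular part rich in thrombospondin repeats, stood at 20.5 and 24.9 in NSC and at 22.9 and 31.7 in NSC Bmi1Over. Sema5b was thus above Sema6a in both NSC libraries and below it in both NSC Bmi1Over libraries, and in NSC the means of Sema5b (22.69 ± 3.14, SD, n = 2) and Sema6a (18.73 ± 3.99, SD, n = 2) lay within their spread. The 4 class 6 genes summed to 55.5 and 74.9 in NSC, whereas the 7 secreted class 3 genes summed to 7.56 and 9.74, most of it Sema3a (4.86 and 6.11, with a mean of 12.8 in NSC by the longest transcript).

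**Figure D1:**
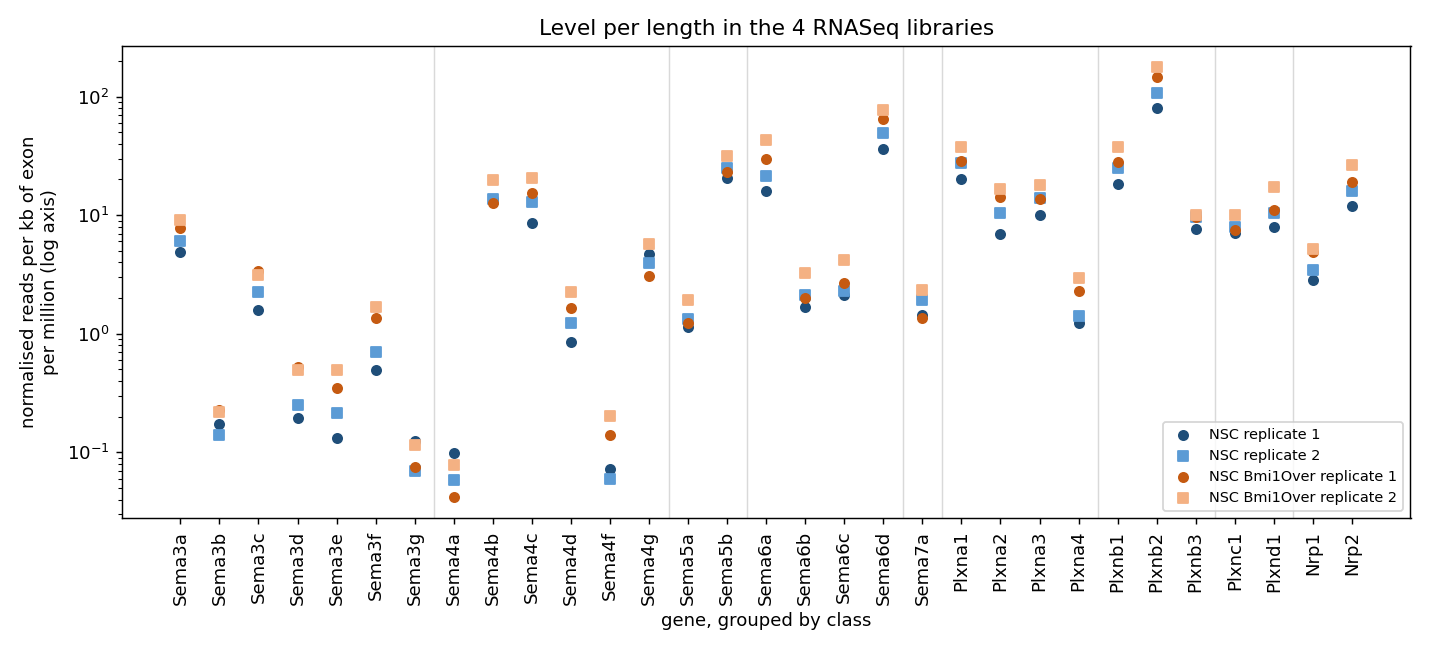
Level of each of the 31 genes in CPM per kb of exon (log axis) in the 4 RNASeq libraries, with genes grouped by class and 1 point per library. Plxnb2 reached 176.1 and Sema6d 77.6 in NSC Bmi1Over replicate 2, while Sema3g and Sema4a stayed under 0.126 in every library.

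To ask whether the family differed between NSC Bmi1Over and NSC, counts were compared with edgeR's quasi-likelihood test over all 15521 genes, with Benjamini-Hochberg adjustment over all of them. In this test 3 of the 31 genes were called as higher in the libraries labelled NSC Bmi1Over (Sema3f, Plxna4 and Nrp1) and 0 as lower, where 2.03% of all genes tested were called as higher and 2.15% in either direction. The smallest two-sided p of an exact permutation test over 2 libraries against 2 is 0.333, so the calls rest on the spread shared across genes. In bulk RNA, more cells of a type and more RNA per cell cannot be told apart.

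Plxna4, a receptor through which class 3 semaphorins with a neuropilin and class 6 semaphorins act on axons and dendrites, lies at chr6:32144268-32588192 of mm10 on the minus strand. It was counted at 17.3 and 20.1 CPM in NSC and at 32.3 and 41.6 CPM in NSC Bmi1Over. Both NSC Bmi1Over libraries were above both NSC libraries, and the groups did not overlap. The log2 fold change was 0.99 (standard error 0.16, adjusted p = 0.0334, edgeR's quasi-likelihood test), a 1.99-fold difference. It stayed past the threshold with each library left out in turn, with log2 fold changes of 0.79 to 1.15 and adjusted p of 0.000439 to 0.0462 (edgeR).

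Sema3f, a secreted repellent that binds Nrp2, lies at chr9:107681500-107710475 on the minus strand. It was rarer, with 81 and 92 reads in NSC and 123 and 501 reads in NSC Bmi1Over, or 2.57 and 3.64 CPM against 7.03 and 8.77 CPM. The lowest NSC Bmi1Over library was thus well above the highest NSC library. The log2 fold change was 1.37 (standard error 0.25, adjusted p = 0.0407, edgeR's quasi-likelihood test). It was no longer called without NSC replicate 1 (adjusted p = 0.0835, edgeR) or without NSC Bmi1Over replicate 2 (adjusted p = 0.0897, edgeR), with log2 fold changes of 1.13 and 1.19.

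Nrp1, the co-receptor for Sema3a that also binds vascular endothelial growth factor, lies at chr8:128358604-128503363 on the plus strand. It stood at 28.01 and 33.9 CPM in NSC and at 48.3 and 51.1 CPM in NSC Bmi1Over. The groups did not overlap, and the difference between them was larger than that within either group. The log2 fold change was 0.69 (standard error 0.14, adjusted p = 0.0466, edgeR's quasi-likelihood test). This call was lost with DESeq2's size factors (adjusted p = 0.0518, edgeR), with library size alone (adjusted p = 0.0593, edgeR), without NSC replicate 1 (adjusted p = 0.395, edgeR) and without NSC Bmi1Over replicate 2 (adjusted p = 0.0760, edgeR), with log2 fold changes of 0.69, 0.54, 0.55 and 0.64.

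The other genes of the family mostly lay on the same side without passing the threshold. The log2 fold change was above 0 for 30 of 31 genes (28 with library size alone), against 48.6% of all genes tested, and its median was 0.63 against -0.01 over all genes. The exception was Sema4a, with 17 and 8 reads in NSC and 4 and 24 reads in NSC Bmi1Over. At an unadjusted p under 0.05 there were 19 of 31 genes, all higher, against 17% of all genes that were higher at that level. In 21 of 31 genes both NSC Bmi1Over libraries were above both NSC libraries, against 29% of all genes, in 0 both were below, and in 10 the groups overlapped. DESeq2's Wald test called 16 of the 31 as higher, against 8.36% of all genes, and 0 as lower, with no adjusted p for 3 of the 31. These counts describe the list, and no test of the list as a whole was made.

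**Figure D2:**
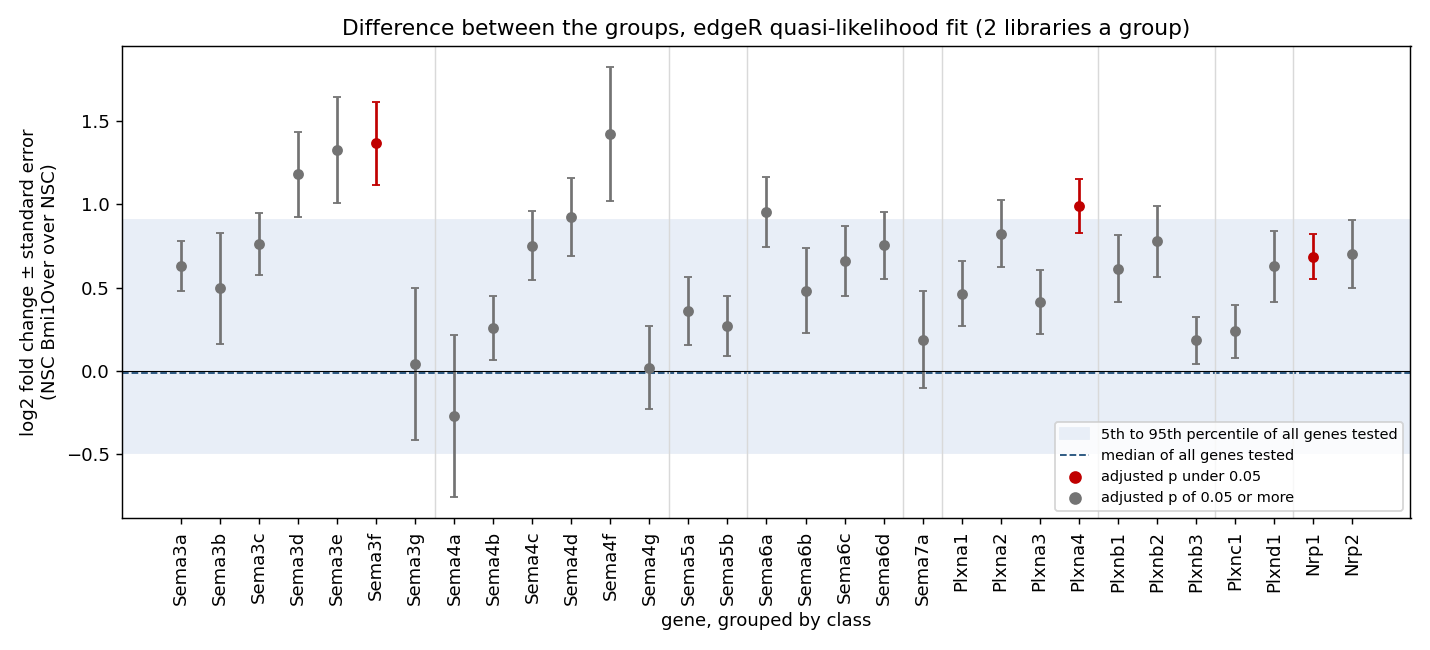
Log2 fold change of each gene (NSC Bmi1Over over NSC, bars are standard errors of the edgeR fit with 2 libraries a group), with the median of all 15521 genes tested as a dashed line and their 5th to 95th percentile (-0.50 to 0.91) shaded. Plxna4, Sema3f and Nrp1, in red, had an adjusted p under 0.05, and Sema4a was the only gene with a value below 0.

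Among the receptors, all 11 had a log2 fold change above 0 (48.6% of all genes tested), and 9 were higher without overlap between the groups (29% of all genes tested). Plxna2, which transmits repulsion by class 6 semaphorins, stood at 119 and 179.9 CPM in NSC and at 242.6 and 286.2 CPM in NSC Bmi1Over. All NSC values were below all NSC Bmi1Over values, and the log2 fold change was 0.82 (standard error 0.20, adjusted p = 0.0689, edgeR). Plxnb2 stood at 615.5 and 831.4 CPM in NSC and at 1122 and 1359 CPM in NSC Bmi1Over, without overlap, and its log2 fold change was 0.78 (standard error 0.21, adjusted p = 0.0860, edgeR). For Nrp2, the co-receptor of Sema3f, 141.2 and 189.7 CPM in NSC faced 223.3 and 313.6 CPM (log2 fold change 0.70, standard error 0.21, adjusted p = 0.0940, edgeR). Plxnd1, the receptor of Sema3e, had a log2 fold change of 0.63 and Plxnb1 of 0.61, and neither passed (adjusted p = 0.130 and 0.115, edgeR).

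The smallest differences among receptors were those of Plxnb3 and Plxnc1. Plxnb3, a B-type plexin of the oligodendrocyte lineage that binds Sema5a, stood at 50.1 and 62.8 CPM in NSC and at 63.2 and 64.8 CPM in NSC Bmi1Over. NSC replicate 2 nearly reached the NSC Bmi1Over libraries, and the log2 fold change was 0.18 (standard error 0.14, adjusted p = 0.438, edgeR). Plxnc1, a receptor of Sema7a, had a log2 fold change of 0.24 with overlapping groups. Plxna1 and Plxna3 had log2 fold changes of 0.46 and 0.41 (adjusted p = 0.194 and 0.224, edgeR), and for Plxna3 the groups overlapped.

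Among the 7 secreted semaphorins, 6 were higher in NSC Bmi1Over without overlap between the groups, against 29% of all genes tested. Sema3e, the ligand of Plxnd1, had 39 and 50 reads in NSC and 57 and 262 reads in NSC Bmi1Over, which gave 1.24 and 1.98 CPM against 3.26 and 4.59 CPM. The groups were apart, and the log2 fold change was 1.33 (standard error 0.32, adjusted p = 0.0656, edgeR). Sema3d stood at 1.68 and 2.18 CPM in NSC and at 4.51 and 4.22 CPM in NSC Bmi1Over, with a log2 fold change of 1.18 (standard error 0.26, adjusted p = 0.0556, edgeR). Sema3a, the classical collapsing factor of growth cones, was the most abundant of the class, at 67.4 and 84.8 CPM in NSC and 108.9 and 126.1 CPM in NSC Bmi1Over (log2 fold change 0.63, standard error 0.15, adjusted p = 0.0665, edgeR). Sema3c stood at 11.3 and 16.1 CPM in NSC and at 24.2 and 22.2 CPM in NSC Bmi1Over, with a log2 fold change of 0.76 (adjusted p = 0.0683, edgeR). Sema3b and Sema3g were at 1.09 CPM or less in every library, and Sema3g overlapped between the groups.

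Sema3a, Sema3c, Sema3d and Sema3e lie on chromosome 5 between 12383385 and 17730268, an interval of 5347 kb. Sema3b and Sema3f lie within 112.8 kb of each other on chromosome 9. No H3K27me3 peak of either list fell in the chromosome 5 interval, the stretches between the genes included. Whether this differs from other intervals of that length was not tested. Within the 112.8 kb on chromosome 9 the 1 peak was the NSC peak in Sema3f.

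The class 6 semaphorins, which signal to A-type plexins, held the most abundant ligand. Sema6a stood at 139.6 and 189.1 CPM in NSC and at 261.9 and 374.8 CPM in NSC Bmi1Over, and its groups did not overlap. Its log2 fold change of 0.96 (standard error 0.21) did not pass the threshold (adjusted p = 0.0584, edgeR) but did with library size alone (adjusted p = 0.0430, edgeR), and the adjusted p ranged from 3.52e-07 to 0.214 over all alternatives run. Sema6d stood at 377.8 and 516.7 CPM in NSC and at 689.3 and 819.6 CPM in NSC Bmi1Over, again without overlap, with a log2 fold change of 0.76 (standard error 0.20, adjusted p = 0.0805, edgeR). Sema6c had a log2 fold change of 0.66 (adjusted p = 0.112, edgeR), and Sema6b one of 0.48 with overlapping groups.

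The class 4 genes were divided. Sema4c, a ligand of Plxnb2, stood at 39.6 and 59.4 CPM in NSC and at 71.3 and 94.6 CPM in NSC Bmi1Over, with a log2 fold change of 0.75 (adjusted p = 0.0868, edgeR), and 7.27% of its exon length is shared with another gene. Sema4d, the ligand of Plxnb1, stood at 6.53 and 9.49 CPM in NSC and at 12.7 and 17.4 CPM in NSC Bmi1Over, with a log2 fold change of 0.93 (adjusted p = 0.0729, edgeR). Sema4f had the highest log2 fold change of the 31 (1.42, standard error 0.40, adjusted p = 0.0883, edgeR) from 12 and 8 reads in NSC and 13 and 61 reads in NSC Bmi1Over. In contrast, Sema4b and Sema4g showed values of 0.26 and 0.02, with overlapping groups, and in both genes NSC Bmi1Over replicate 1 was the lowest of the 4 libraries and NSC Bmi1Over replicate 2 the highest. Sema4a was at 0.539 CPM or less throughout.

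Sema5b, Sema5a and Sema7a overlapped between the groups. Sema5b stood at 144.9 and 176.4 CPM in NSC and at 162.3 and 224.2 CPM in NSC Bmi1Over (log2 fold change 0.27, standard error 0.18, adjusted p = 0.382, edgeR). Sema5a had a log2 fold change of 0.36 (adjusted p = 0.307, edgeR). Sema7a, the lipid-anchored member that promotes axon growth through integrins, stood at 4.72 and 6.33 CPM in NSC and at 4.46 and 7.79 CPM in NSC Bmi1Over (log2 fold change 0.19, standard error 0.29, adjusted p = 0.710, edgeR), with NSC Bmi1Over replicate 1 as its lowest library.

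Most of the 31 genes were also higher in replicate 2 than in replicate 1 of either group. NSC replicate 2 was above NSC replicate 1 for 25 of the 31 genes, including all 11 receptors, against 49.8% of all genes tested, and the median log2 ratio of replicate 2 to replicate 1 was 0.37 over the 31 genes and near 0 (0.00) over all genes. Likewise NSC Bmi1Over replicate 2 was above NSC Bmi1Over replicate 1 for 28 of 31, against 49.7% of all genes, with a median log2 ratio of 0.43. In 17 of 31 genes the values stood in the order NSC replicate 1, NSC replicate 2, NSC Bmi1Over replicate 1, NSC Bmi1Over replicate 2 from lowest to highest, against 17.6% of all genes. Some other measures stood in that same order and some did not. Reads that could not be mapped made up 11.2% and 13.8% in the NSC replicates and 16.2% and 17.6% in the NSC Bmi1Over replicates, and the 10 most abundant genes took 5.23%, 6.48%, 8.57% and 10.1% of counted reads. The normalisation factors of the libraries fell along that order (1.077, 1.029, 0.967 and 0.932). With library size alone the median log2 fold change was 0.48 over the 31 genes and -0.165 over all genes. A list of 6 endothelial markers summed to 2.95 and 3.80 CPM in NSC and to 4.51 and 6.07 CPM in NSC Bmi1Over, with Cldn5 at 0 in every library and 0 of 3 tested genes called. A list of 6 microglial markers summed to 1.30 and 1.98 CPM in NSC and to 2.46 and 3.10 CPM in NSC Bmi1Over, with Itgam at 0 and 0 of 1 tested called, and P2ry12 made up nearly all of this sum (1.27, 1.74, 2.23 and 2.96 CPM). The sums of the astrocyte list (400.1 to 465.4 CPM), the oligodendrocyte list (2481 to 2609 CPM), the mesenchymal and meningeal list (3.23, 2.21, 2.86 and 1.57 CPM) and the erythroid list (0.400 to 0.602 CPM) did not stand in that order. Of 8 neuronal markers, which summed to between 927.5 and 1013 CPM without that order, Syt1 alone was called (9.13 and 27.2 CPM in NSC, 66.5 and 95.9 CPM in NSC Bmi1Over). The part of these measures in the result was not tested.

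Single libraries decided the number of calls. With NSC replicate 1 left out the median log2 fold change of the family was 0.51 and 1 gene was called (Plxna4), against 1.08% of all genes tested as higher, and with NSC Bmi1Over replicate 2 left out it was 0.43, 25 of 31 values were above 0, and again Plxna4 alone was called, against 1.15% of all genes. Without NSC replicate 2 or without NSC Bmi1Over replicate 1, 16 and 22 of the 31 genes were called, all as higher, where 7.34% and 11.9% of all genes tested were called as higher.

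**Figure D3:**
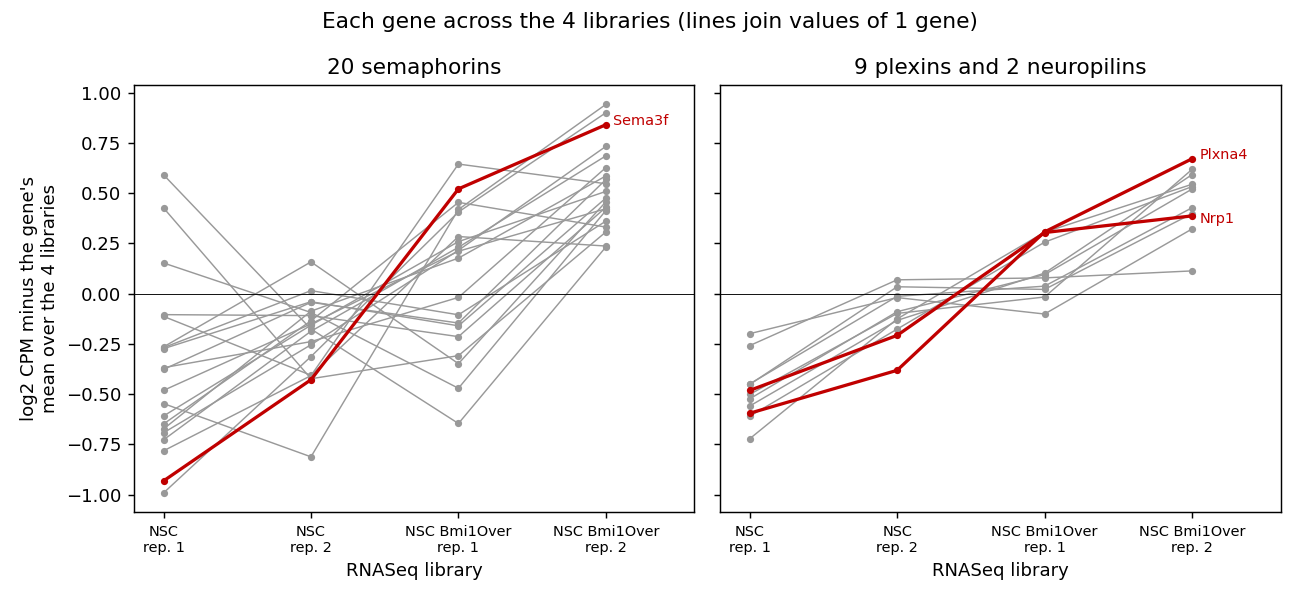
Log2 CPM of each gene in the 4 RNASeq libraries, less its own mean over them, with 1 line per gene joining the values only so that a gene can be followed. Most lines were lowest in NSC replicate 1 and highest in NSC Bmi1Over replicate 2, and 17 of 31 stood in the order in which the libraries are drawn.

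H3K27me3 was found at the promoters of 6 of the 31 genes in NSC and of 0 in NSC Bmi1Over. A promoter was counted as marked when a peak of the deposited list lay within 5 kb of any annotated transcription start site (TSS). The 6 genes were Sema3f, Sema5b, Sema7a, Plxna2, Plxna4 and Plxnb3, or 19.4% of the family, where 8.89% of 22028 protein-coding genes were marked in NSC. In NSC Bmi1Over 4.44% of protein-coding genes were marked. The NSC list holds 12982 peaks and the NSC Bmi1Over list 6810. Each condition had 1 library, so neither count has an error from replicates and no test was made. The read totals that the methods give for ChIPSeq are higher for the deepest NSC library than for either NSC Bmi1Over library, and the part of depth in these counts was not tested.

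The 7 promoter peaks were 200 to 990 bp long, had fold enrichments of 3.52 to 4.62 over the background of the peak caller, and none spanned a TSS. Over all NSC peaks the median length was 355 bp and the median fold enrichment 4.06, so the 7 lay on both sides of the medians. Of these 7, 4 had a fold enrichment below 4.03, the smallest value among all peaks of the NSC Bmi1Over list. The 1 member with a promoter peak at a −log10 q of 3 or more was Sema7a, and no promoter peak of the family reached a fold enrichment of 5 or a length of 1000 bp, which 3.12% and 3.95% of protein-coding genes did.

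The peak in Sema3f, at chr9:107708976-107709410, was 435 bp long and lay 69 bp downstream of a TSS, with an enrichment of 4.09-fold at a −log10 q of 2.78. That in Plxna4 was 908 bp long and began 965 bp downstream of a TSS (3.85-fold, −log10 q 2.36). Sema7a had peaks of 990 bp and 200 bp, 782 and 2068 bp downstream of its TSS, the longer enriched 4.62-fold (−log10 q 3.86). These peaks lay in introns. Sema5b was marked 1588 bp upstream of its TSS by 296 bp and Plxnb3 2775 bp upstream by 200 bp. In Plxna2, 4 intronic NSC peaks began between 3911 and 10518 bp downstream of a TSS, the first of them within the promoter window.

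Away from promoters, both lists held peaks in the introns of Plxna2 and Plxna4, both long genes, 7 in NSC (3 in Plxna2 and 4 in Plxna4) and 4 in NSC Bmi1Over. In NSC Bmi1Over, Plxna2 had 1 such peak, of 447 bp and a fold enrichment of 4.47, which overlapped the farthest NSC peak. Plxna4 had 3, with fold enrichments of 4.82 to 5.37, of which the peak at chr6:32379726-32379976 overlapped an NSC peak.

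Polycomb domains in mammals tend to sit on stretches rich in CG dinucleotides, so the sequence under the peaks was examined. The following stretches are from GRCm38 (the build of mm10, RefSeq, plus strand). They are the middle 300 bases of the promoter peak in the called gene Sema3f and of the strongest promoter peak, in Sema7a. The last stretch is the 251 bases of Plxna2 that lay under a peak in both lists. Capitals mark each CG, which reads the same on both strands.
Sema3f, chr9:107709044-107709343: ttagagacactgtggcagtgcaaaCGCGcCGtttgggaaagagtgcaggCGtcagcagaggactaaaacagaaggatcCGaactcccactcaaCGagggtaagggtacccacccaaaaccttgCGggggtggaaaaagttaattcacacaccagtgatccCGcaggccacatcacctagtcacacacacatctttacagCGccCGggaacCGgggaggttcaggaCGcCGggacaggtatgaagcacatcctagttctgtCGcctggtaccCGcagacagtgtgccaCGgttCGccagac
Sema7a, chr9:57941240-57941539: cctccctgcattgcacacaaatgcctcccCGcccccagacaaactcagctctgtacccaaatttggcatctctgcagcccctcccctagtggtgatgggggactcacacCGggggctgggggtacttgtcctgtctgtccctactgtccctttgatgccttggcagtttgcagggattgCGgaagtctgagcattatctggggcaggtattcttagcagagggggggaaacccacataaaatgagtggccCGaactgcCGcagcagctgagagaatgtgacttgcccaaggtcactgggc
Plxna2, chr1:194630343-194630593: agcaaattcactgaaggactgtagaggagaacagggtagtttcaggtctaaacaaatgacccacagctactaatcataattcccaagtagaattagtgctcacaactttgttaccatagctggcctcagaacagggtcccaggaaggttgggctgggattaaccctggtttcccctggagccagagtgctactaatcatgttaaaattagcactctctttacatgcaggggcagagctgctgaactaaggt

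The Sema3f stretch held 17 CG dinucleotides and that of Sema7a 5, and the Plxna2 stretch held 0. Over whole peaks, CG density was 6.21 per 100 bp in Sema3f and 3.13 in the longer Sema7a peak, values at or above those of 96.1% and 88.5% of NSC peaks. It was 2.36 in Sema5b and 1 in both Plxnb3 and the shorter Sema7a peak, or at or above 83.3% and 55.2% of NSC peaks. The density of all NSC peaks had a median of 0.943 per 100 bp, and 89.3% of NSC peaks held at least 1 CG. The peak shared by the lists in Plxna2 held 0.191 CG per 100 bp in NSC, and the other Plxna2 peaks held between 0 and 1 per 100 bp. RefSeq promoters, from 250 bases before to 50 after a start, were at hand for 26 of the 31 genes and held between 2 and 42 CG dinucleotides with a median of 23, against a median of 8 over 27025 genes. Those 27025 genes were taken without a filter on gene type, whereas the 31 genes are all protein-coding. Among marked genes Sema5b held 27, Plxna2 25, Sema7a 23 and Plxnb3 4, and the unmarked genes ranged from 2 (Sema3a) to 42 (Sema3c).

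**Figure D4:**
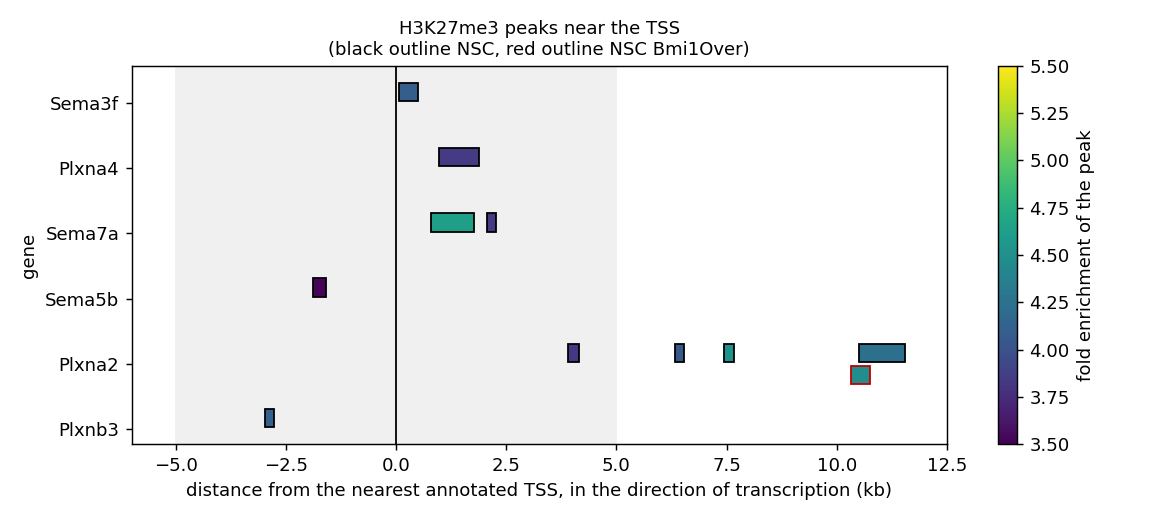
H3K27me3 peaks of the 6 genes marked in NSC, drawn to scale by their distance from the nearest annotated TSS in kb, in the direction of transcription, with the promoter window shaded and fill colour giving the fold enrichment. All promoter peaks came from the NSC list (black outline), and the 1 NSC Bmi1Over peak in this range (red outline) lay in Plxna2 beyond the window, with the distant peaks of Plxna4 outside the range drawn.

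Set beside expression, marked genes were spread over the range of the family. In NSC the 6 marked genes had levels per length from 0.597 (Sema3f) to 22.7 (Sema5b) with a median of 5.18, and the 25 unmarked genes from 0.0659 (Sema4f) to 93.7 (Plxnb2) with a median of 4.35. Between NSC Bmi1Over and NSC, the 6 marked genes had log2 fold changes of 0.18 to 1.37 with a median of 0.55, and the other 25 of -0.27 to 1.42 with a median of 0.63. Of the 3 called genes, 2 (Sema3f and Plxna4) were marked in NSC and Nrp1 was not. Over all protein-coding genes tested, 3.36% of 1043 with a promoter peak in NSC were called as higher, and 2.16% of 12282 without one.

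A list of genes that act with or downstream of plexins was tested in the same fit. Of these 43 co-receptors, adhesion partners, GTPase regulators, kinases and CRMP and MICAL proteins, 42 were tested and 0 were called in either direction by edgeR, where 2.15% of all genes were called, a share that corresponds to less than 1 gene of a list this size. At an unadjusted p under 0.05, 6 were higher and 2 lower, where 17% of all genes were higher. DESeq2 called 5 as higher, against 8.36% of all genes, and 0 as lower. The log2 fold change was above 0 for 20 and below 0 for 22, with a median of -0.03. The smallest adjusted p, named after the values were seen, was that of Chl1, an adhesion molecule that associates with Nrp1, at 207.1 and 277.2 CPM in NSC and 424.9 and 438.6 CPM in NSC Bmi1Over (log2 fold change 0.83, standard error 0.18, adjusted p = 0.0514, edgeR).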

How the data were processed

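Gene counts of 4 RNASeq libraries and H3K27me3 peak lists of 2 ChIPSeq libraries were used. Per the labels and the methods of the study, the authors trimmed reads with Trim Galore, aligned RNASeq reads to mm10 with STAR and deposited raw read counts per gene, before any biotype filtering. ChIPSeq reads were aligned with Bowtie2 2.3.4, 1 library per condition was kept, and broad peaks were called with MACS2. For each peak the authors give a fold enrichment (a ratio to a background) and the −log10 of p and q, and the deposited display score was not used. The peak files hold no depth, and the read totals in the methods differ between the conditions.

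Unstranded counts were used, since both strands had nearly equal totals, so reads of overlapping genes cannot be told apart by strand. Reads that were unmapped, multimapped, in no gene or ambiguous stayed out of library sizes, which left 65.9% to 72.2% counted. Genes kept by filterByExpr were normalised by TMM (factors 0.932 to 1.08) and fitted with edgeR 4.0.16 (limma 3.58.1, R 4.3.3), group as the only term and an adjusted p under 0.05. Levels per length used the union of GENCODE vM21 exons, and the annotation the authors counted on is not given in the sources used here. The main edgeR fit was tested on simulated counts, which were drawn with the means and spread of these libraries. Peaks and sequences were read in Python 3.11.15. Alternatives were DESeq2 1.42.0, other scalings and filters, a replicate block, leaving out each library and, for peaks, stricter limits.

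By rule, full values and tests went to called genes, genes with a promoter peak and the 3 highest levels per length among ligands and among receptors, and the values of other members and of marker genes were added after they were seen. The genes, the list of 43 pathway genes and the cell type markers were chosen with earlier results of these data known. Of the other marker lists, 1 of 7 tested neuronal genes (Syt1, higher), 1 of 6 astrocyte genes (Aldh1l1, lower), 0 of 7 oligodendrocyte, 0 of 1 microglial, 0 of 2 mesenchymal and 0 of 1 erythroid genes were called. Sequences are shown for selected peaks, and the sequence and CG content of 1 promoter peak are not reported here.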

Additional observations from a re-analysis of the deposited data

How the results depend on the processing

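Against 334 genes called with TMM and filterByExpr, 537 were called with library size alone (3 members, 1 pathway gene, and a median of all genes moved from -0.01 to -0.17), 2356 of 28541 tested without a filter (18 members, 7 pathway genes, with 6.63% of all genes higher) and 1488 with DESeq2's Wald test (16 members, 5 pathway genes, with 8.36% higher), and the cause was not tested. Over leaving out each library in turn, where a lone sample is assumed to vary like the other group, called genes ranged from 176 to 2546, called members from 1 to 22, pathway genes from 0 to 6, and the median log2 fold change of the members from 0.43 to 0.82. The share of calls that were higher was 94.3%, and 64.4% with library size alone, 80.4% without a filter, 70.3% with the block and 87.2% with DESeq2.

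With the replicate block, which pairs cultures that share only a number (correlation of their deviations 0.169, with only 2 pairs), 3459 genes, 20 members and 9 pathway genes were called, with 15.7% of all genes higher. Values of uncalled genes changed sign for Sema4g with the block (-0.037), library size alone (-0.14) and no filter (-0.001), for Sema3g with library size alone (-0.12), and with a library left out for Sema4g (-0.51 to 0.37), Sema3g (-0.40 to 0.53), Sema7a (-0.30 to 0.50), Sema4b (-0.11 to 0.53) and Sema5a (-0.005 to 0.63).

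Members with an NSC promoter peak fell to 0 at a fold enrichment of 5 or a length of 1000 bp, 1 at a −log10 q of 3 and 3 within 1 kb, and protein-coding genes from 1958 to 688, 871, 1277 and 1437 in NSC, with 570 and 342 in NSC Bmi1Over at the first 2 limits. Dividing by the longest transcript moved 40 of 62 levels beyond 1 SD.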
